A study of Mus musculus with 3 samples.

Results

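Hypoxia-inducible factor (HIF) pathway genes were taken as the gene rows whose symbol was Hif1a, Epas1, Arnt, Vhl, Egln1, Egln2, Egln3, Vegfa, Bnip3 or Ankrd37, and all 10 were found among the 55536 genes measured. The libraries came from the cytosolic fraction of macrophages, which are phagocytes, cultured from the bone marrow of C57BL/6J mice. Cells received lipid A, the membrane anchor of bacterial lipopolysaccharide, at 100 ng/ml for 12 h, spent another 12 h without it, and were taken at 0 min of a second exposure. Total RNA was sequenced after depletion of ribosomal RNA, in 3 libraries of this single group, numbered as biological replicates 1, 2 and 3 and sharing a donor identifier. Nothing in the labels places the replicates in separate animals, so a p-value below reflects how far these libraries differ, and that difference may be technical. Untreated or low-oxygen cells were not analysed here, and the levels below therefore show no response to lipid A or to oxygen.

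HIF is a dimer of an oxygen-regulated alpha subunit, encoded by Hif1a or Epas1, and a stable partner encoded by Arnt. In the presence of oxygen the prolyl hydroxylases encoded by Egln1, Egln2 and Egln3 mark the alpha subunit, and the Vhl product, the substrate receptor of a ubiquitin ligase, then directs it to the proteasome. When oxygen is low the alpha subunit escapes this mark, and the dimer binds DNA at the core letters ACGTG or GCGTG and raises genes such as Vegfa, Bnip3, Ankrd37, Egln1 and Egln3. In macrophages the Hif1a gene is also known to be raised by Toll-like receptor signalling. Because control acts largely on the alpha protein, RNA levels do not report HIF activity.

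Gene rows held 28981178, 53119941 and 46783133 expected counts in replicates 1, 2 and 3. All 10 macrophage markers reached 10 TPM in every library (TPM, as deposited, is abundance corrected for transcript length and scaled to a fixed library total), and Lyz2, the most abundant of them, held 3326 ± 193 TPM (SD, n = 3). Of 20 markers of neutrophils, lymphocytes, endothelium, fibroblasts, red cells, mast cells and platelets, none reached 1 TPM in every library, 5 had no count, and their sum was 2.42, 1.21 and 1.66 TPM in replicates 1, 2 and 3. The highest were the endothelial markers Pecam1 at 0.86 and Cdh5 at 0.48 TPM. Replicate 3 stood apart: the nuclear RNA Malat1 held 1343 TPM there against 158 and 91.1 TPM in replicates 1 and 2, and Neat1, another nuclear RNA, held 91.4 against 16.8 and 10.4 TPM. Protein-coding genes took 31.0%, 27.2% and 31.6% of TPM, so every TPM below is small relative to one computed over messenger RNAs alone. In bulk RNA, fewer cells holding a transcript and less of it per cell cannot be told apart.

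Of the 10 genes, 7 reached 1 TPM in every library and 3 stayed far below it. The 7 were Egln2, Hif1a, Arnt, Vegfa, Vhl, Bnip3 and Egln1, with means between 4.14 and 12.8 TPM, and the 3 were Epas1, Ankrd37 and Egln3, with means of 0.157, 0.123 and 0.013 TPM. Over all genes 17.1% reached 1 TPM in every library, and over the 22028 protein-coding genes 41.2% did. The median over the 10 genes was 4.89 ± 0.211 TPM (SD, n = 3), beside a median of 0.16 TPM over all protein-coding genes and of 8.78 TPM over the 9074 protein-coding genes that reached 1 TPM. Egln2, Hif1a and Arnt lay above the last of these medians, and Vegfa, Vhl, Bnip3 and Egln1 lay below it. The share of protein-coding genes with a lower mean TPM ran from 69.5% for Egln1 to 84.3% for Egln2 among the 7, and was 49.9% for Epas1, 49.0% for Ankrd37 and 40.1% for Egln3.

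**Figure D1:**
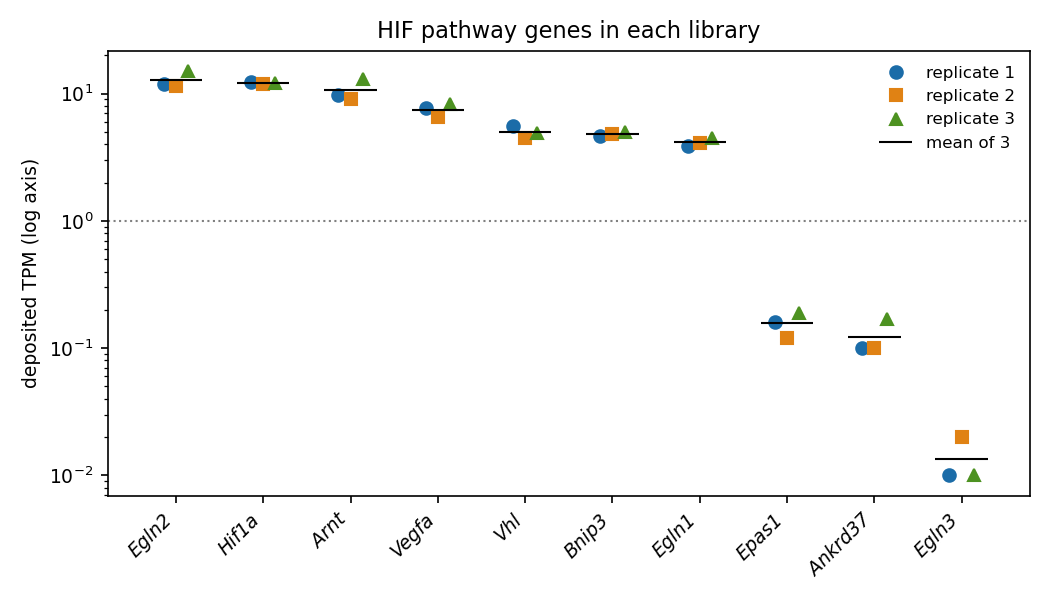
Deposited TPM of the 10 HIF pathway genes in replicates 1, 2 and 3, on a log axis, ordered by the mean (bars), with 1 TPM dotted. Egln2, Hif1a, Arnt, Vegfa, Vhl, Bnip3 and Egln1 lie between 3.86 and 15.07 TPM in every library, and Epas1, Ankrd37 and Egln3 lie at or below 0.19 TPM.

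Hif1a was the leading alpha subunit gene of these cells, and Epas1 was counted in every library at a low level. Hif1a (ENSMUSG00000021109.13, chr12:73901375-73947530, plus strand of GRCm38, as all coordinates below unless stated) held 12.36, 11.85 and 12.13 TPM in replicates 1, 2 and 3, from 2591, 5052 and 3603 expected counts. These gave 12.1 ± 0.255 TPM (SD, n = 3), the smallest spread relative to the mean of any of the 10 genes on this scale, and 83.6% of protein-coding genes were lower. Epas1 (ENSMUSG00000024140.10, chr17:86753700-86833410, plus strand), which encodes HIF-2 alpha, held 0.16, 0.12 and 0.19 TPM from 26, 60 and 71 counts. Scaled by the library total, these Epas1 counts were 0.897 CPM in replicate 1, with an exact Poisson 95% range of 0.586 to 1.31. They were 1.13 CPM in replicate 2, with a range of 0.862 to 1.45, and 1.52 CPM in replicate 3, with a range of 1.19 to 1.91. CPM is the count scaled by depth with no correction for length, and these ranges cover counting error only.

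Within libraries, the log2 ratio of Hif1a to Epas1 TPM was 6.30 ± 0.315 (SD, n = 3), which is 78.7-fold, with Hif1a higher in 3 of 3 libraries. Pooled counts per effective length gave 79.7-fold, with a 95% counting interval of 68.0 to 93.9. An exact two-sided sign-flip test over 3 libraries cannot go below p = 0.25, which is the value that each of the 5 ratios between related genes reached. The deposited posterior mean TPM gave a smaller log2 ratio of 5.25 for this pair, since that estimate is higher for Epas1, at 0.33 TPM.

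Arnt, the shared beta partner, was nearly as abundant as Hif1a. Arnt (ENSMUSG00000015522.18, chr3:95434388-95497240, plus strand) held 9.82, 9.10 and 13.03 TPM, a mean of 10.7 ± 2.09 (SD, n = 3). Replicate 3 was the high library, and without it the mean was 9.46 TPM. The ranges of Hif1a and Arnt overlapped, with Hif1a higher in 2 of 3 libraries and a log2 ratio of 0.20 ± 0.27 (SD, n = 3).

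Among the prolyl hydroxylase genes, Egln2 was the highest, Egln1 stood well below it, and Egln3 was nearly absent. Egln2 (ENSMUSG00000058709.11, chr7:27158658-27166802, minus strand) held 11.83, 11.58 and 15.07 TPM, a mean of 12.8 ± 1.95 (SD, n = 3). Egln1 (ENSMUSG00000031987.6, chr8:124908587-124949324, minus strand), whose product is the main oxygen sensor acting on HIF-1 alpha in most cells, held 3.86, 4.08 and 4.48 TPM, a mean of 4.14 ± 0.314. The groups of values did not overlap, and the log2 ratio of Egln1 to Egln2 was -1.62 ± 0.123 (SD, n = 3), so that Egln2 was 3.08-fold higher, in 3 of 3 libraries. Egln3 (ENSMUSG00000035105.5, chr12:54178981-54203860, minus strand), itself a HIF target gene in many cells, had 1, 4 and 2 counts, or 0.01, 0.02 and 0.01 TPM. Pooled counts per effective length put Egln1 at 312-fold over Egln3, with a 95% counting interval of 151 to 777. At this depth Egln3 stood near the 3 counts that a count of 0 allows.

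Vhl (ENSMUSG00000033933.13, chr6:113623959-113631633, plus strand) held 5.54, 4.50 and 4.89 TPM, a mean of 4.98 ± 0.525 (SD, n = 3). Its values overlapped those of the target gene Bnip3 and lay above every Egln1 value. In the order of the 10 genes it followed Vegfa without overlap, at a log2 ratio of Vegfa to Vhl of 0.59 ± 0.15 (SD, n = 3).

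Of the 3 HIF target genes among the 10 that are not hydroxylases, Vegfa and Bnip3 reached 1 TPM in every library and Ankrd37 did not. Vegfa (ENSMUSG00000023951.17, chr17:46016993-46032369, minus strand), which encodes the main growth factor for blood vessels, held 7.65, 6.55 and 8.29 TPM, a mean of 7.50 ± 0.880 (SD, n = 3). Its relative Vegfb, which is not known as a hypoxia-induced gene, held 10.51, 14.00 and 13.47 TPM. The log2 ratio of Vegfa to Vegfb was -0.75 ± 0.322 (SD, n = 3), with Vegfa lower in 3 of 3 libraries.

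Bnip3 (ENSMUSG00000078566.8, chr7:138890836-138909519, minus strand), whose product on the outer mitochondrial membrane recruits the autophagy machinery, held 4.61, 4.82 and 4.97 TPM, a mean of 4.80 ± 0.181 (SD, n = 3). Bnip3l, its close relative with the same kind of role, held 17.67, 20.55 and 22.87 TPM. The 2 sets of values did not overlap, and Bnip3l was 4.22-fold higher, at a log2 ratio of Bnip3 to Bnip3l of -2.08 ± 0.132 (SD, n = 3). Ankrd37 (ENSMUSG00000050914.16, chr8:45996902-46005707, minus strand), which encodes a small ankyrin repeat protein and is a hypoxia-induced gene in many cells, had 2, 7 and 7 counts, or 0.10, 0.10 and 0.17 TPM. Even these few reads were split over several transcript models, so no Ankrd37 isoform is described.

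In the order of mean TPM, neighbours whose ranges overlapped were Egln2 and Hif1a, Hif1a and Arnt, Vhl and Bnip3, and Epas1 and Ankrd37. Egln2 headed the order through replicate 3 alone: Hif1a was higher than Egln2 in replicates 1 and 2, and without replicate 3 the means were 12.1 TPM for Hif1a and 11.7 TPM for Egln2. Neighbours without overlap were Arnt over Vegfa (log2 ratio 0.50 ± 0.15), Vegfa over Vhl (0.59 ± 0.15) and Bnip3 over Egln1 (0.22 ± 0.06). The others were Egln1 over Epas1 (4.75 ± 0.30) and Ankrd37 over Egln3 (3.24 ± 0.89, SD, n = 3). Ankrd37 over Egln3 rests on 2, 7 and 7 against 1, 4 and 2 counts in replicates 1, 2 and 3. Exact Poisson ranges of these counts, as CPM, overlapped in every library. In TPM the step also depends on effective length, 429, 705 and 569 bases for Ankrd37 against 2414, 2440 and 2436 for Egln3. The order of this pair is therefore uncertain. The step from Egln1 to Epas1 is the wide gap between the 7 genes that reached 1 TPM and the others. Transcript tables made directly from the reads gave lower values but placed the 7 genes in the same order, from Egln2 at 4.91 and Hif1a at 4.67 to Egln1 at 1.52 TPM. In those tables Ankrd37, at 0.126 TPM, stood above Epas1, at 0.073 TPM.

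None of the 8 genes with enough counts to test differed between libraries by the criteria used, an adjusted p under 0.05 and at least 2-fold between the highest and lowest library. The test was a chi-square test of homogeneity on rounded expected counts, scaled by TMM (a normalisation that sets the bulk of genes equal between libraries), with Benjamini-Hochberg adjustment over all 13636 genes tested. It covers counting error only, so a small p-value does not set a difference against the spread between replicates. These criteria were met by 16.2% of all genes and by 8.12% of protein-coding genes, so a count of 0 among 8 is not a result about the pathway. Without replicate 3 the number of genes called fell to 608, against 2203 with it. At any ratio, 5 of the 8 had an adjusted p under 0.05 (Hif1a, Vhl, Egln1, Vegfa and Bnip3), beside 75.6% of all genes and 75.9% of protein-coding genes. On scaled counts 3 of the 8, Arnt, Egln2 and Epas1, were highest in replicate 3, beside 33.8% of all genes and 27.7% of protein-coding genes. Ratios of the highest to the lowest library lay between 1.02 for Arnt and 1.54 for Epas1, with a median of 1.22 over the 8 genes, 1.27 over protein-coding genes and 1.31 over all genes tested. Egln3 and Ankrd37 were below a mean of 10 counts and were not tested.

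Arnt was the steadiest of the 8 genes once counts were scaled between libraries. Its TMM-scaled level was 61.0 CPM in replicate 1, 61.1 CPM in replicate 2 and 62.3 CPM in replicate 3. Its biological coefficient of variation from edgeR was 0.115, and only 0.0744% of the 12090 genes fitted had a lower one. edgeR moderates the coefficient of each gene towards those of other genes, so it is not the spread of that gene's values alone. Egln2 followed with 37.8, 39.6 and 40.4 CPM and a coefficient of 0.118. Hif1a held 92.8, 95.7 and 73.8 CPM, with replicate 3 low, and Vhl held 24.3, 21.1 and 18.2 CPM, again with replicate 3 lowest. The coefficients of Vegfa, Egln1, Hif1a, Vhl and Bnip3 lay between 0.130 and 0.164, and that of the sparsely counted Epas1 was 0.314. Over all genes fitted the median was 0.165 and the common value 0.210.

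The 2 scales gave replicate 3 a different place for several genes. In replicate 3, Arnt had the highest TPM with nearly level CPM, and Vegfa, Bnip3 and Egln1 had their highest TPM but their lowest CPM. Between replicate 3 and the mean of the others, the median protein-coding gene moved by 0.23 log2 units on the TPM scale and by -0.07 on the TMM scale. Relative to that median, Hif1a stood at -0.23 (TPM) and -0.28 (TMM) log2 units in replicate 3, Vhl at -0.27 and -0.24, and Bnip3 at -0.15 and -0.14. Arnt stood at 0.23 (TPM) and 0.10 (TMM) and Egln2 at 0.14 and 0.13, so the directions held on both scales for these 5 genes. Vegfa, at -0.0050 and -0.13, and Egln1, at -0.05 and -0.04, stayed close to the median gene. The effective length that the authors' quantification gave Arnt was 3599, 3677 and 3292 bases in replicates 1, 2 and 3, and for Vegfa 2922, 2887 and 2645 bases. For Egln1 it was 3346, 3372 and 3368 bases and for Bnip3 1469, 1534 and 1509 bases, so it was shortest in replicate 3 for Arnt and Vegfa and not for Egln1 or Bnip3. The part of effective length in the difference between the scales was not tested.

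**Figure D2:**
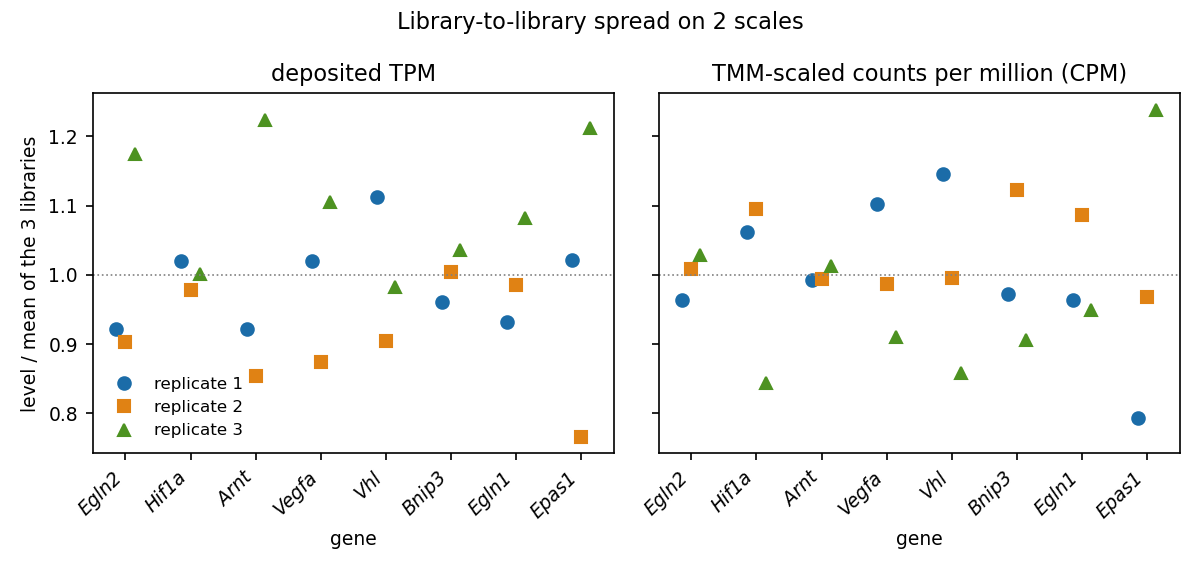
Level of each of the 8 genes with enough counts to test, in replicates 1, 2 and 3, divided by the gene's mean over the 3 libraries, as deposited TPM (left) and as TMM-scaled CPM (right). Arnt spreads widely on the TPM scale, with replicate 3 on top, and lies near 1 in all libraries on the count scale, while Hif1a and Vhl are lowest in replicate 3 on the count scale.

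Transcript models divided the reads of Hif1a, Arnt and Vegfa among named isoforms. Stretches of coding sequence that differ between these isoforms are shown here from the GENCODE M21 transcripts, 5′ to 3′ on the coding strand. Each lies within the coding span common to the models compared, and coding differences outside that span are not shown. The isoforms also differ at their ends: Arnt-202 runs to 95497240 and Arnt-203 to 95495567. On the minus strand, Vegfa-202 and Vegfa-201 end at 46016993 and Vegfa-207 at 46018543. Vegfa-202 and Vegfa-207 begin at 46032369 and Vegfa-201 at 46031815. Vegfa-202 has 368 codons against 146 in Vegfa-201, so the 132-base stretch is only part of their coding difference. Shares below are of whole models, and reads over the stretches alone were not counted. The pair of Vegfa stretches encode basic residues known for heparin binding, and their presence is known to affect how far the secreted factor diffuses. All 4 stretches keep the reading frame.
Vegfa, 132 bases present in Vegfa-202 and Vegfa-207 and absent from Vegfa-201 (chr17:46020991-46021122, minus strand): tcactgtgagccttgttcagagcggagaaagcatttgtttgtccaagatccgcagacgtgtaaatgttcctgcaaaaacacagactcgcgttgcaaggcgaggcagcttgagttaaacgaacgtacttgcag
Vegfa, 72 bases present in Vegfa-207 and absent from Vegfa-202 and Vegfa-201 (chr17:46022277-46022348, minus strand): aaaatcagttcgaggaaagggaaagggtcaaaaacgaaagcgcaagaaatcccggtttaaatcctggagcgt
Arnt, 45 bases present in Arnt-203 and absent from Arnt-202 (chr3:95466793-95466837, plus strand): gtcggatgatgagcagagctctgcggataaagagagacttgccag
Hif1a, 42 bases present in Hif1a-201 and absent from Hif1a-202 (chr12:73941688-73941729, plus strand): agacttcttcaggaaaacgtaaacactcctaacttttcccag

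Vegfa RNA was assigned mostly to the model that holds the 132-base stretch without the 72-base stretch. Vegfa-202 took 72.2%, 66.4% and 62.1% of Vegfa TPM in replicates 1, 2 and 3, a mean of 66.9 ± 5.04% (SD, n = 3). Vegfa-201, which lacks both stretches and has 146 codons, took 19.9%, 24.8% and 16.4%. Vegfa-207, which holds both, took 5.75%, 5.35% and 9.17%. Vegfa-202 led in both quantifications, but the order of the other two changed: in the tables made directly from the reads, Vegfa-202 took 58.9 ± 7.23%, Vegfa-207 16.1 ± 2.76% and Vegfa-201 11.0 ± 2.34% (SD, n = 3). Which of the minor isoforms was the more abundant is therefore not settled by these files.

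Hif1a RNA was assigned mostly to the model with the downstream start. Hif1a-201, which begins at position 73907904 and has 836 codons, took 74.0%, 75.6% and 70.3% of Hif1a TPM. Hif1a-202, which begins upstream at 73901375 with another first exon, lacks the 42-base stretch and has 810 codons, took 25.0%, 24.4% and 23.2%. The shares were close between libraries, at 73.3 ± 2.72% and 24.2 ± 0.915% (SD, n = 3), and the tables made directly from the reads gave 77.4 ± 7.21% and 17.9 ± 1.33%.

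Arnt RNA was assigned mostly to a model without the 45-base stretch. Arnt-202 took 64.5%, 66.8% and 56.2% of Arnt TPM and Arnt-203, which includes the stretch, 28.1%, 25.5% and 20.0%. Both shares were lowest in replicate 3. The tables made directly from the reads put the pair closer together, at 53.4 ± 5.89% and 33.6 ± 6.08% (SD, n = 3). For Egln2 and Bnip3 the leading models held 97.3 ± 1.53% and 98.5 ± 1.52% of TPM (SD, n = 3). Egln1 and Egln3 have 1 model each, and Vhl-201 held all Vhl TPM, although the tables made directly from the reads gave it 86.9 ± 13.5% (SD, n = 3).

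**Figure D3:**
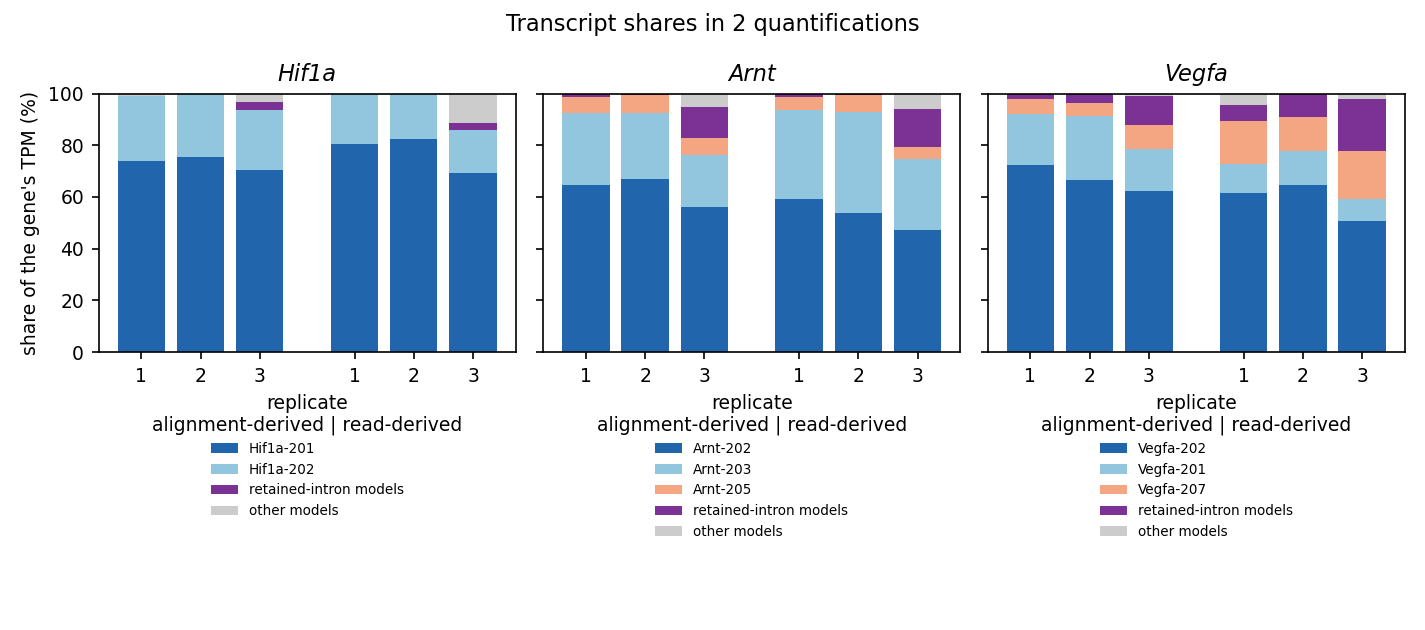
Share of each gene's TPM (%) held by transcript models of Hif1a, Arnt and Vegfa in replicates 1, 2 and 3, from the alignment-derived tables (left 3 bars of each panel) and the tables made directly from the reads (right 3 bars). Hif1a-201, Arnt-202 and Vegfa-202 lead in every bar, and the part assigned to retained-intron models is largest in replicate 3 for all 3 genes.

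Transcript models with a retained intron were seen mainly in replicate 3. Of the 13 such models annotated in Hif1a, Arnt, Vegfa and Bnip3, 4, 3 and 11 had a TPM above 0 in replicates 1, 2 and 3, and 10 were highest in replicate 3. Their share of Arnt TPM was 1.22%, 0.549% and 12.1%, and of Vegfa TPM 2.22%, 3.52% and 11.3%. For Hif1a it was 0% in replicates 1 and 2 and 3.05% in replicate 3, and for Bnip3 3.03%, 0% and 1.61%. In the tables made directly from the reads, the shares were 6.28%, 9.18% and 19.8% for Vegfa and 1.35%, 0.568% and 14.5% for Arnt. There Bnip3 stood at 0%, 0% and 5.25%, so that its highest library became replicate 3. In the alignment-derived tables, summed over the 7 genes that reached 1 TPM, the share was 0.772%, 0.533% and 4.72%, beside 2.82%, 2.95% and 4.49% over all protein-coding genes. The 7 genes were thus below the protein-coding share in replicates 1 and 2 and near it in replicate 3. Malat1 and Neat1 moved the same way between libraries, with the values given above, and their part in this result was not tested.

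**Figure D4:**
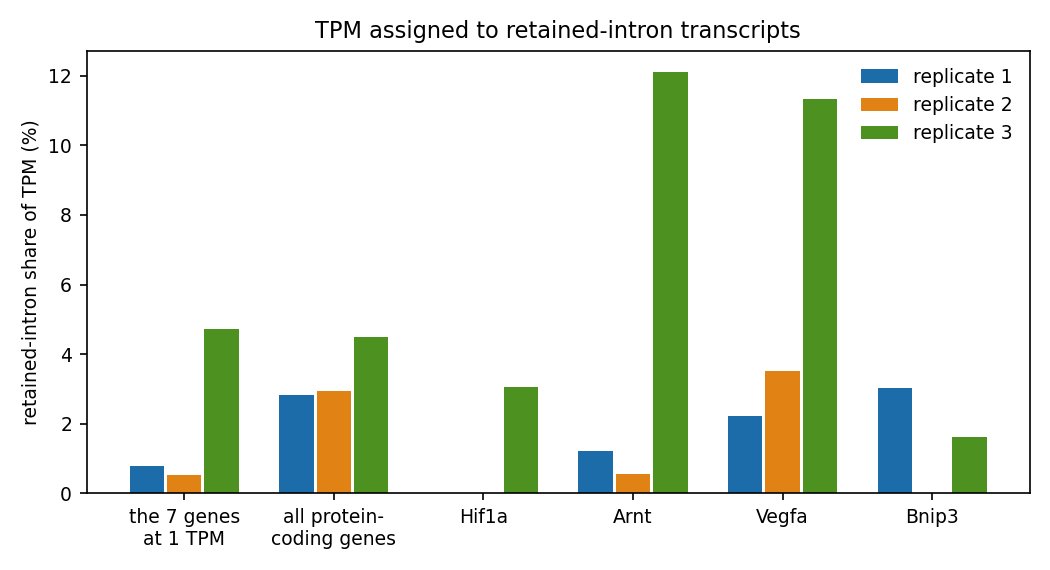
Share of TPM (%) assigned to retained-intron transcript models in the alignment-derived tables, for the 7 genes that reached 1 TPM together, for all protein-coding genes and for Hif1a, Arnt, Vegfa and Bnip3, in replicates 1, 2 and 3. Replicate 3 is highest in every group but Bnip3, reaching 12.1% for Arnt and 11.3% for Vegfa.

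The 250 bases before the RefSeq start (GRCm38.p6) were searched for ACGTG and GCGTG on both strands, overlapping matches being counted as 1. Entries were found for 9 of the 10 genes, all but Epas1, with 11 starts in all, and 9 of these windows held at least 1 match, beside 38.6% of 32851 windows of all genes. The windows were not matched for base composition. Bnip3 and the first Egln2 start had 4 matches each, and 1.49% of all windows had 4 or more. Ankrd37 had 3. The windows of Bnip3, which reached 1 TPM in every library, and Ankrd37, which did not, are shown with the matches in capitals. They were the target genes with the most matches.
Bnip3, chr7:138909507-138909756, minus strand: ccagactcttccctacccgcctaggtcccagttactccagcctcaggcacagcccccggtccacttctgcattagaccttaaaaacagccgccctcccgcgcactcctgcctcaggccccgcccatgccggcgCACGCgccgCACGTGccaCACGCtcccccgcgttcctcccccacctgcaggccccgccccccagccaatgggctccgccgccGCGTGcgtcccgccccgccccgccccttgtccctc
Ankrd37, chr8:45999851-46000100, minus strand: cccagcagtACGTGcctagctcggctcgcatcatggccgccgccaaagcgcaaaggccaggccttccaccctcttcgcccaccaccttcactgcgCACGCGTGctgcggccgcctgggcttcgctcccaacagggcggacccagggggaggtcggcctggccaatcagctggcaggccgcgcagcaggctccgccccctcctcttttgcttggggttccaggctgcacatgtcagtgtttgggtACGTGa
Hif1a and Egln1 had 2 matches each, Arnt and Egln3 had 1, and Vhl had none. Vegfa had none before its upstream start and 2 before its downstream one. The second Egln2 start (window chr7:27165729-27165978) had 1 match. The window of the downstream Vegfa start (chr17:46025164-46025413) lies wholly inside the Vegfa gene, and it is 1 of the 9 windows with a match. Also wholly inside their genes, and among those 9, are the windows of Hif1a, of Ankrd37 and of the second Egln2 start. Matches are letters in a window and say nothing of binding, and genes with matches stood at both ends of the order of levels.

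Around the 10 genes, the machinery that turns HIF alpha over was broadly present, while most alternative subunits and partners were not. Of 14 other genes of oxygen sensing and alpha subunit turnover, 13 reached 1 TPM in every library and the median gene held 26.8 ± 4.92 TPM (SD, n = 3). The highest were Hsp90ab1 (242 ± 22.9 TPM) and Hsp90aa1 (75.0 ± 4.76 TPM), chaperones of the alpha subunit, Elob (92.5 ± 6.24 TPM), which couples Vhl to its ligase, and Rack1 (87.0 ± 3.30 TPM), which promotes degradation independent of oxygen. The lowest were the deubiquitinase gene Usp20 (1.46 ± 0.425 TPM) and P4htm (0.043 ± 0.029 TPM), a prolyl hydroxylase of the endoplasmic reticulum. None of the 13 genes tested differed between libraries by the criteria above, beside 16.2% of all genes and 8.12% of protein-coding genes. This count of 0 is therefore not a result about these genes.

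Of 13 other HIF subunits, dimerisation partners and coactivators, 4 reached 1 TPM in every library. These were the coactivators Ep300 (29.7 ± 8.81 TPM) and Crebbp (10.3 ± 1.74 TPM), Cited2 (23.2 ± 3.10 TPM), which competes with HIF for them, and the clock gene Arntl (1.39 ± 0.278 TPM). The neural relatives Sim1 and Sim2 were at 0 TPM, as was Npas3, named for this tie after its values were seen. Hif3a, the third alpha subunit gene, held 0.22, 0.04 and 0.08 TPM, and was named after its values were seen. Thus none of the alternative alpha or beta subunit genes came near Hif1a or Arnt. Of the 6 genes tested, 1 differed between libraries, beside 16.2% of all genes and 8.12% of protein-coding genes. It was Ahr, a dioxin receptor gene that also pairs with Arnt, at 0.09, 0.12 and 0.05 TPM, and it was named after its values were seen.

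HIF target genes of metabolism were mostly present, and other target genes were divided. Of 26 metabolic targets, 22 reached 1 TPM in every library, and the median gene held 9.34 ± 0.191 TPM (SD, n = 3). The glycolytic genes Gapdh (352 ± 52.9 TPM), Aldoa (171 ± 24.7 TPM), Ldha (118 ± 6.43 TPM) and Pgam1 (95.7 ± 8.79 TPM) were highest, and Ak4 (0.133 ± 0.046 TPM), an adenylate kinase gene, and Cox4i2 (0 TPM), the oxygen-regulated respiratory subunit, lowest. Of the 25 tested, 1 differed between libraries, beside 16.2% of all genes and 8.12% of protein-coding genes: Aldoc, at 0.54, 1.27 and 0.53 TPM, likewise named after its values were seen. Near-identical pseudogene copies of Gapdh and other glycolytic genes can share reads, so these levels are uncertain in how reads were split.

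Of 33 other target genes, 18 reached 1 TPM in every library but the median gene held 1.55 ± 0.189 TPM (SD, n = 3). Hmox1 (115 ± 22.1 TPM), which degrades haem, Plod1 (58.2 ± 10.8 TPM) and P4ha1 (30.4 ± 5.96 TPM), which hydroxylate collagen, and the transferrin receptor gene Tfrc (56.5 ± 16.6 TPM) were highest. Car12 and Epo were at 0 TPM, as was Ndrg2, named for this tie after its values were seen. Epo, the gene through which HIF was found, had no count in any library, which allows up to 0.104, 0.0565 and 0.0641 CPM in replicates 1, 2 and 3, from 3 counts of the total.

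Of the 24 other target genes tested, 4 differed between libraries, beside 16.2% of all genes and 8.12% of protein-coding genes. Among these at a mean of 1 TPM or more, Ndrg1, a growth-regulated gene, held 1.97, 3.48 and 1.72 TPM, with replicate 2 high. Bhlhe40, a transcriptional repressor gene, held 1.95, 2.33 and 1.24 TPM, and Lox, which crosslinks collagen, 4.10, 2.87 and 2.34 TPM. Highest libraries thus differed from gene to gene, replicate 2 for Ndrg1 and Bhlhe40 and replicate 1 for Lox. The other was Edn1, the gene of a vessel-constricting peptide, which averaged 0.937 TPM and was named after its values were seen.

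Of 9 other VEGF ligands and receptors, 4 reached 1 TPM in every library. The co-receptors Nrp2 (107 ± 19.1 TPM) and Nrp1 (65.3 ± 16.7 TPM) were highest, followed by Vegfb (12.7 ± 1.88 TPM). Kdr, the main VEGF receptor of endothelium, held 9.05, 4.30 and 3.51 TPM and differed between libraries by 3.06-fold on TMM-scaled counts (chi-square test of homogeneity, adjusted p = 4.50e-288). That p-value covers counting error only. Replicate 1 was the high library for Kdr, as it was for the endothelial markers Pecam1 (1.22, 0.48 and 0.88 TPM) and Cdh5 (0.80, 0.50 and 0.15 TPM). These markers make up most of the summed markers of other cells given above, and their part in the Kdr difference was not tested. Pecam1 was lowest in replicate 2 and Kdr in replicate 3. Replicate 1 was also the high library for Lox, given above, and for the macrophage marker Itgam (52.68, 25.72 and 48.66 TPM). It was not the high library for the macrophage marker Lyz2 (3362, 3117 and 3499 TPM). Vegfc and Vegfd, ligands of lymphatic vessels, were lowest, at 0.007 and 0.003 TPM. Among the 6 genes tested, 2 differed between libraries, beside 16.2% of all genes and 8.12% of protein-coding genes: Kdr and the lymphatic receptor gene Flt4 (0.37, 0.16 and 0.18 TPM), the second named after its values were seen.

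Of 9 relatives of Bnip3 in mitophagy, the removal of mitochondria by autophagy, 8 reached 1 TPM in every library, and the median gene held 20.4 ± 2.61 TPM (SD, n = 3). Fkbp8 (60.4 ± 11.1 TPM) and Phb2 (32.5 ± 3.19 TPM), both mitochondrial receptors, and Map1lc3b (24.8 ± 2.36 TPM) and Gabarapl1 (22.0 ± 3.43 TPM), the autophagosome proteins that such receptors bind, were highest. The kinase gene Pink1 was lower, at 5.18 ± 0.820 TPM (SD, n = 3). The values of Bnip3 given above overlapped those of Pink1, which were 4.37, 5.16 and 6.01 TPM.

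**Figure D5:**
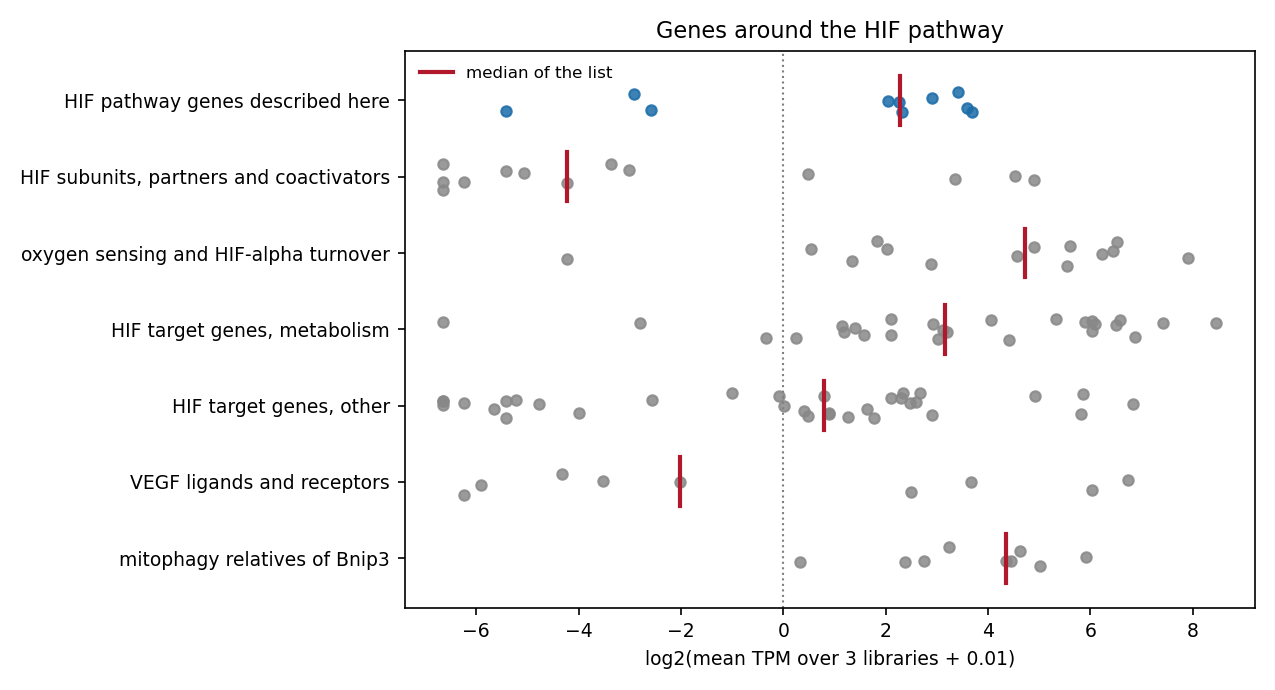
Mean TPM over the 3 libraries, as log2(TPM + 0.01), of the 10 HIF pathway genes and of 6 wider lists, each point a gene and each vertical bar the median of the list, with 1 TPM dotted. The turnover, metabolic and mitophagy lists have medians above that of the 10 genes, while the lists of alternative subunits and of VEGF genes are split between a few abundant genes and many near 0.

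Reads of some of these genes could be shared with an overlapping gene, and no source used here states whether the counting was stranded. Hif1a shares 330 exon bases with the antisense gene Gm15283, which had 1, 3.01 and 7.05 counts, and 148 with Gm49321 on its own strand, which had none. Bnip3 shares 504 exon bases with the antisense gene Gm45507, which also had none. Ankrd37 shares 57 exon bases with Ufsp2 on the opposite strand, which had 645, 1436 and 1041 counts, so its few counts are the least certain of the 10.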

How the data were processed

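Ribosomal RNA-depleted total RNA of the cytosolic fraction was measured in 3 libraries of 1 group. Per the deposited README, each library has a gene table and a transcript table quantified from alignments (mm10, annotation M21) and a second transcript table quantified from the reads themselves. No source used here names the aligner or quantifier. Expected counts, as deposited, are estimated read numbers in which shared reads are split between genes or transcripts. The deposited TPM and FPKM values are normalised by the authors for length and total, per the file headers, and the deposited percent column gives each transcript's share of its gene.

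Rows of tRNAs, spike-ins and phiX (26345 of 81881, holding 0.418%, 0.248% and 0.165% of counts in replicates 1, 2 and 3) name no gene and were left out. After rounding, TMM scaling and the coefficients of variation (genes with at least 10 counts in each library) came from edgeR 4.0.16 under R 4.3.3. Homogeneity was tested by chi-square over all genes with a mean of 10 or more counts, with 0.5 counts added for ratios. edgeR's quasi-likelihood test had no contrast to fit in 1 group. Intervals are 95% exact Poisson, and those of pooled ratios come from the exact binomial. Annotation, coordinates and transcript sequences were GENCODE M21, and promoters were RefSeq (GRCm38.p6). Other tools were matplotlib 3.10.9, pandas 2.3.3, scipy 1.17.1 and numpy 2.4.6 under Python 3.11.15.

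The members and lists were chosen with earlier results of these data known. Named were the 10 genes, of each wider list the 4 highest, the 2 lowest and up to 3 genes that differed between libraries and averaged at least 1 TPM, the related genes of the ratios, transcripts at 10% or more, Malat1 and Neat1. Hif3a, Npas3, Ndrg2, Ahr, Aldoc, Edn1, Flt4, Vegfa-207, the overlapping genes and the genes of the other observations fall outside this rule, having been picked with their values in view. Of the list symbols, Ero1a and Figf were matched to Ero1l and Vegfd as synonyms. A gene that this rule would name is not reported here. Alternatives were other thresholds, ratios and filters, FPKM, posterior mean and read-derived TPM, TPM rescaled to protein-coding genes, DESeq2 1.42.0 size factors, library totals, a pseudocount of 1 and each replicate left out.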

Additional observations from a re-analysis of the deposited data

How the results depend on the processing

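The count of HIF pathway genes at 1 TPM in every library was 7 under each alternative but 1, a threshold of 5 TPM, at which it was 4. No alternative called any of the 10 genes different between libraries, but Egln3 and Ankrd37 were tested only with no filter on low counts. The main criteria were met by 16.2% of all genes and 8.12% of protein-coding genes, so this is not a result about the pathway. Over all genes, the number called was 3997 with no filter on low counts and 3704 at a ratio of 1.5, against 2203, and between 608 (without replicate 3) and 2034 with a replicate left out. The median over the 10 genes was 8.11 as FPKM, 5.34 as posterior mean TPM, 1.95 as read-derived TPM and 16.4 as TPM rescaled to protein-coding genes, against 4.89 TPM, and between 4.795 and 5.0025 TPM with a replicate left out. The common biological coefficient of variation was 0.437 with no filter on low counts, against 0.210. Rescaled TPM is by definition TPM divided by the protein-coding share given above, and FPKM is a different unit. The cause of the other shifts was not tested. The 5 log2 ratios kept their direction under every alternative, and a pseudocount of 1 TPM lowered that of Hif1a to Epas1 to 3.50 and that of Egln1 to Egln3 to 2.34. Recomputed from expected counts per effective length, an alternative chosen after seeing the data, the latter ratio was 8.44 ± 0.473 (SD, n = 3), since deposited TPM keeps 2 decimals. From deposited TPM, the Egln1 to Egln3 log2 ratio lay between 8.13 and 8.70 with a replicate left out. Levels of single genes moved mainly with read-derived or rescaled TPM. No paired analysis was possible because there is a single group. Depth limits Egln3 and Ankrd37, at 1 to 7 counts in each library.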

Other observations

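Within several pairs of HIF target genes with the same kind of function, levels were unequal in every library. The genes in this paragraph were named after their values were seen. Hk1, a hexokinase gene, held 44.97, 30.38 and 45.76 TPM, against 15.89, 13.20 and 21.10 TPM for Hk2. Plod1, a collagen lysyl hydroxylase gene, held 62.61, 45.90 and 66.21 TPM, against 0.02, 0.06 and 0.08 TPM for Plod2, and P4ha1, a collagen prolyl hydroxylase gene, held 35.83, 24.00 and 31.23 TPM, against 0.93, 1.85 and 1.39 TPM for P4ha2. These ranges did not overlap. Slc2a1, a glucose transporter gene, held 2.54, 2.66 and 2.71 TPM, against 0.85, 1.18 and 1.52 TPM for Slc2a3. Nos2, which makes nitric oxide from arginine, held 5.30, 4.30 and 3.29 TPM, while Arg1, which splits the same substrate, had 0.02, 0 and 0.02 TPM. Car9, a carbonic anhydrase gene used widely as a marker of hypoxia, held 1.67, 1.63 and 1.91 TPM. Hif1an, whose product hydroxylates an asparagine of the alpha subunit and blocks its coactivators, held 4.02, 3.53 and 4.73 TPM, overlapping Egln1.

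The deposited TPM of the 7 genes that reached 1 TPM exceeded the read-derived TPM by 2.01-fold (Vegfa) to 2.38-fold (Bnip3) in replicate 1, by 2.11-fold (Vhl) to 2.40-fold (Bnip3) in replicate 2, and by 2.92-fold (Vhl) to 3.85-fold (Egln1) in replicate 3.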
